A study of Schizosaccharomyces pombe with 97 samples.

Results

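The genes *eno102* (SPBPB21E7.01c), SPBPB21E7.02c, SPBPB21E7.10 and SPBPB21E7.11 lie side by side near the left end of chromosome II of the fission yeast *Schizosaccharomyces pombe*. They are 4 of the 7014 genes in the count table, and they were chosen because they are neighbours whose RNA rose in wild type cells after nitrogen was removed. The wild type values therefore chose the genes and are given here as a description without a test, whereas the 6 mutants were not used for the choice. The RNA-seq libraries came from 27 groups of 3 cultures (A, B and C). The wild type was *smt0*, a strain that cannot switch mating type, and each mutant carried in the *smt0* background 1 gene deletion marked with *kanMX4*, taken from a deletion library by crossing. The deleted genes were *hht2* (a histone H3 gene), *pht1* (the histone variant H2A.Z), *iec1* and *ies2* (subunits of the Ino80 chromatin remodelling complex), *arp42* (a putative subunit of it) and *asp1* (an inositol kinase). Vegetative cells in a minimal medium with nitrogen were sampled at T0, and cells washed into the same medium without nitrogen were sampled after 1 day (T1D), after 1 week (T1W) and again after 2 weeks (T2W). The *ies2∆* libraries had no T2W group and formed a second batch that held no other strain of this set, and what belongs to the batch and what to the deletion cannot be told apart.

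Fission yeast cells that lose their nitrogen source divide without growth and enter quiescence, a reversible arrest in which most messenger RNAs become scarce while a small set accumulates. Enolase, the product named for *eno102*, converts 2-phosphoglycerate to phosphoenolpyruvate in glycolysis, and the genome holds a second enolase gene, *eno101*. SPBPB21E7.02c is annotated by RefSeq as a protein of the phosphoglycerate mutase and 6-phosphofructo-2-kinase family, whose relatives act on phosphorylated sugars, and SPBPB21E7.10 and SPBPB21E7.11 are annotated as uncharacterized proteins. Genes close to chromosome ends in this yeast are often packed in chromatin that keeps them silent in growing cells.

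*eno102* occupies positions 58136 to 59704 of chromosome II on the reverse strand, as 1 exon of 1569 bases. SPBPB21E7.02c follows at 60553 to 61205 on the reverse strand with 642 exon bases, SPBPB21E7.10 at 61362 to 62126 on the forward strand with 660 exon bases and SPBPB21E7.11 at 61526 to 63086 on the reverse strand with 1355 exon bases. RefSeq gives proteins of 440, 213, 84 and 164 residues in this order. All 4 genes fall within 4951 bases, and 58135 bases of the reference separate them from the end of the chromosome sequence. SPBPB21E7.10 and SPBPB21E7.11 share 496 exon bases on opposite strands, which is 75.2% of the first and 36.6% of the second. On the strand opposite to *eno102*, the non-coding gene *eno102*-antisense-1 (58453 to 59684) lies wholly inside its exon. Every run of 58 bases in the exons of the 4 genes, the length of 1 read, occurred at 1 position of the genome, so reads from the members have no identical copy elsewhere to fall on. The enolases *eno102* and *eno101* share 65.6% of aligned residues and 63.3% of aligned coding bases, with at most 18 identical coding bases in a row.

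The stretches outside annotated transcripts that precede the starts of the members are shown because they are the sequence the cluster has in front of its genes. They are printed 5′ to 3′ in the direction of the gene that follows, from RefSeq genome ASM294v3, in which each of the 4 members shares at least 1 end with the positions of the count table. SPBPB21E7.02c and SPBPB21E7.10 point away from each other and have a single gap of 156 bases between them. Capitals mark a match to GATAA, TTCTTTGTT or TGACGT on either strand, the letters bound by GATA factors, by Ste11 and by Atf1, all known from the nitrogen starvation and stress responses of this yeast.
*eno102* upstream, chrII:59705-59954, reverse strand: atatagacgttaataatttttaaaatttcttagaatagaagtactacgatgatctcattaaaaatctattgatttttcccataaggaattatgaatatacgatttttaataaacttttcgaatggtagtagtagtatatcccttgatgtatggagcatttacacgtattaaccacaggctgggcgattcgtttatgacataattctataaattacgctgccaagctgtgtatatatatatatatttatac
gap before SPBPB21E7.02c and SPBPB21E7.10, chrII:61206-61361, forward strand: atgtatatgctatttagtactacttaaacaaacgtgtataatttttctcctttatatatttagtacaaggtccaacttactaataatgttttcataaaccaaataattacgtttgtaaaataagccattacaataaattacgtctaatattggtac
SPBPB21E7.11 upstream, chrII:63087-63336, reverse strand: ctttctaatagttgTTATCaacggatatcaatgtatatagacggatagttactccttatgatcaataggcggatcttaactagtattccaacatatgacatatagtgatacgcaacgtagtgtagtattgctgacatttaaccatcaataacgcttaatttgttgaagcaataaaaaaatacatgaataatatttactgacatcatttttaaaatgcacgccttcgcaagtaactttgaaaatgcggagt

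Only the window before SPBPB21E7.11 held a match, GATAA on the opposite strand at bases 15 to 19 of 250, and no such letters were found in the other 2 windows. Of 5123 windows of 250 bases before protein-coding genes, 54.2% held GATAA, 1.62% TTCTTTGTT and 5.5% TGACGT, and of those of 156 bases 37.6%, 0.956% and 4.22% did. The share of A and T bases was 72% before *eno102*, 75.6% in the gap and 68% before SPBPB21E7.11. The medians over the windows before protein-coding genes were 68% for 250 bases and 67.3% for 156 bases. Those windows start at RefSeq gene ends and can reach into neighbouring genes. The windows shown start at ends in the count table and lie outside annotated genes, so the shares are not like for like.

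**Figure D1:**
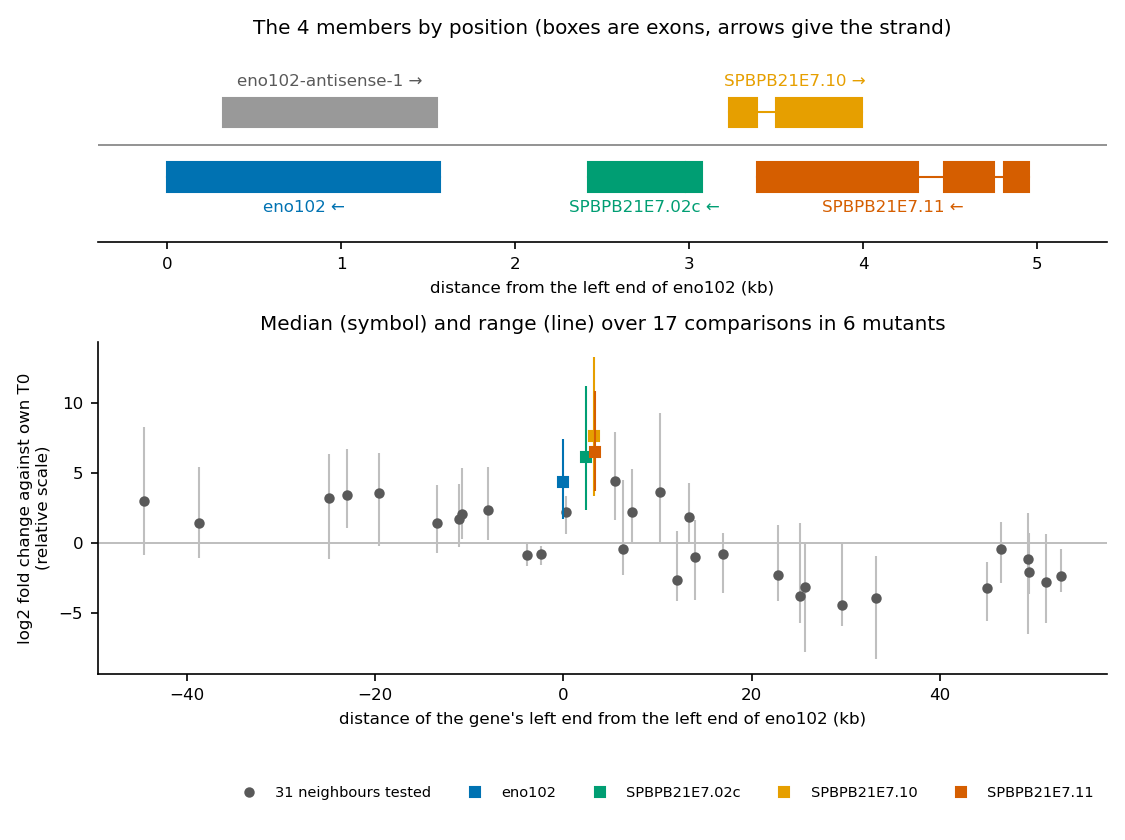
Top, exons (boxes) of the 4 members and of *eno102*-antisense-1 by distance in kb from the left end of *eno102*, forward strand above and reverse strand below the line. Bottom, the median (symbol) and range (line) of the fitted log2 fold change against own T0 on the relative scale over 17 comparisons in the 6 mutants, for the members (squares) and 31 neighbours within 50000 bases (circles), by distance in kb. All 4 medians of the members lie above 4, while *aes1* and most genes to its right have medians below 0. For SPBPB21E7.02c, SPBPB21E7.10 and SPNCRNA.1303 some or all fits rest on T0 groups with 3 or fewer reads and give no bound.

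Gene totals ranged from 1980570 to 18992894 reads per library (median 5149311), and reads on the ERCC spike-in RNAs, which were added by the number of vegetative cells, from 5678 to 3003773 (median 202106). Levels are given on 2 scales. The relative scale is CPM, reads scaled by the library's gene total, on which a change shared by all genes cancels. The spike-in scale is the same quantity taken over ERCC reads (ERCC CPM), on which it does not. In these bulk samples fewer cells and less RNA per cell cannot be told apart. The deleted genes were read first as a check of the labels. In the libraries labelled *hht2∆* A at all 4 times and *hht2∆* C at T2W, *hht2* was at 15% to 36% of its *smt0* level on the relative scale, beside 0.202% to 0.942% in the other 7 *hht2∆* libraries. The library labelled *ies2∆* T0 C had *ies2* at 221% of *smt0*, beside 0.97% to 39.7% in the other 8, and *asp1* was at 3.56% to 8.96% in *asp1∆*. The 39.7% was that of *ies2∆* T1D B, beside 10.1% and 6.2% in T1D A and C, and T1D B was not counted as doubtful. In *pht1∆*, *iec1∆* and *arp42∆* the deleted gene kept 38.8% to 120%, 55.2% to 141% and 9.76% to 103% of its *smt0* level. Coding bases make up 33.2%, 51.7% and 43.6% of the counted exons of these 3 genes, and counts over whole exons cannot tell whether the deleted part was read. In *arp42∆* the values were 9.76% to 34.4% at T0 and 45.5% to 103% at the later times, which the comparisons with own T0 set side by side. Calls that change without the doubtful libraries are named below, and the counts over members and lists are also given without them.

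At T0 the cluster was close to silent. Of the 21 T0 libraries, 13 had no read on SPBPB21E7.02c, 14 none on SPBPB21E7.10, and 1 each none on *eno102* and on SPBPB21E7.11. In all T0 libraries together *eno102* had 339 reads, SPBPB21E7.11 had 110, SPBPB21E7.02c had 21 and SPBPB21E7.10 had 14. All 60 later libraries had reads on all 4 members, and the totals over all libraries were 24683 for *eno102*, 4052 for SPBPB21E7.02c, 12357 for SPBPB21E7.10 and 32547 for SPBPB21E7.11. The worth of 1 read differed widely between libraries on the spike-in scale, from 29.7 to 168 ERCC CPM at T0, 0.75 to 162 at T1D, 0.35 to 163 at T1W and 0.68 to 10.3 at T2W.

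**Figure D2:**
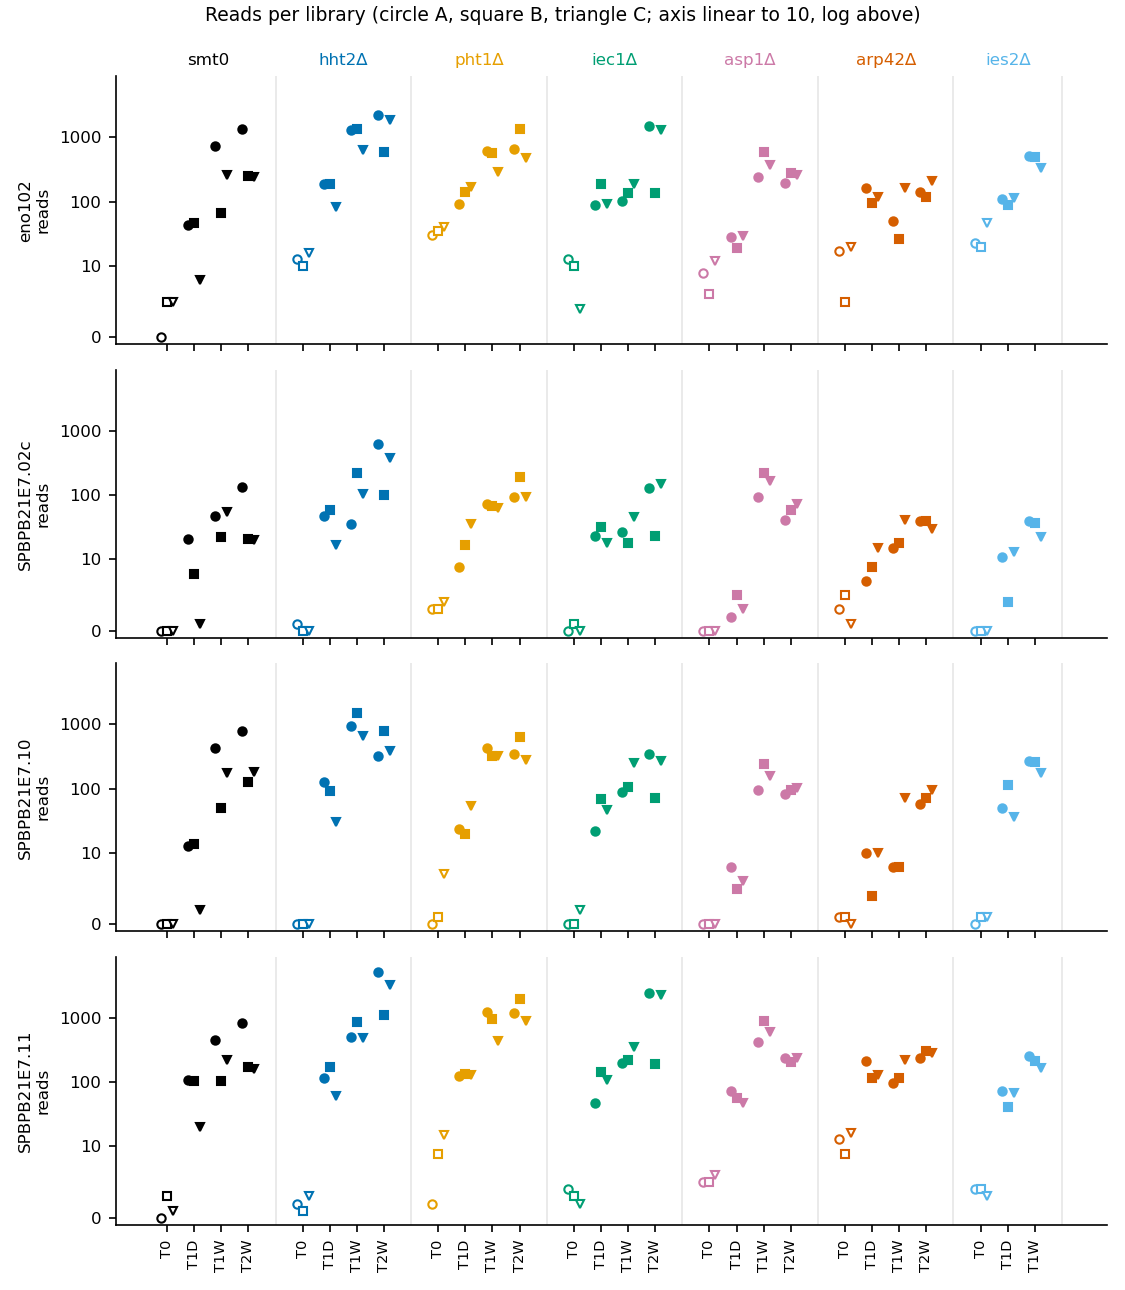
Reads of each member per library, by strain (colour) and time (open symbols T0, filled symbols later), on an axis that is linear to 10 and logarithmic above. Circles, squares and triangles are cultures A, B and C. SPBPB21E7.02c had at most 5 reads and SPBPB21E7.10 at most 7 in any T0 library, and no later library was at 0.

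*eno102* had the most reads of the members before starvation. In *smt0* cultures A, B and C it had 0, 5 and 5 reads at T0, 43, 46 and 8 at T1D, 741, 67 and 256 at T1W, then 1360, 250 and 242 at T2W. In *hht2∆* it had 13, 10 and 16 reads at T0, 188, 185 and 82 at T1D, 1308, 1341 and 635 at T1W, then 2237, 603 and 1877 at T2W. The *smt0* cultures at T1W and T2W were uneven, with A above B and C, whereas all *hht2∆* cultures at T1D exceeded their T0 counts at least 5-fold. In *pht1∆* the reads were 30, 35 and 40 at T0, 93, 140 and 171 at T1D, 617, 570 and 292 at T1W, then 653, 1353 and 486 at T2W. In *iec1∆* they were 13, 10 and 4, then 88, 189 and 91, then 102, 134 and 191, then 1518, 138 and 1292. At T2W, cultures A and C of *iec1∆* were thus high and B low. In *asp1∆* there were 9, 6 and 12 reads at T0, 28, 19 and 29 at T1D, 242, 589 and 378 at T1W, then 196, 284 and 258 at T2W. In *arp42∆* there were 17, 5 and 20 reads at T0, 161, 94 and 117 at T1D, 50, 26 and 162 at T1W, then 139, 118 and 211 at T2W. In *ies2∆* there were 23, 20 and 46 reads at T0, 111, 88 and 112 at T1D and 520, 489 and 336 at T1W. Within every strain the later libraries all had more reads on *eno102* than the T0 libraries of that strain.

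SPBPB21E7.02c, the sugar phosphate family gene, had the fewest reads of the members after starvation. In *smt0* it had 0 reads in all cultures at T0, 21, 8 and 1 at T1D, 47, 22 and 54 at T1W, then 134, 21 and 20 at T2W. In *hht2∆* it had 1, 0 and 0 reads at T0, 47, 59 and 17 at T1D, 36, 223 and 103 at T1W, then 618, 100 and 379 at T2W. The *hht2∆* cultures A and C at T2W, both with reads on *hht2*, were the highest of all libraries. In *pht1∆* the reads were 3, 3 and 4, then 9, 17 and 35, then 72, 68 and 63, then 94, 191 and 95. In *iec1∆* they were 0, 1 and 0, then 23, 32 and 18, then 27, 18 and 46, then 129, 23 and 149. In *asp1∆* they were 0 in all cultures at T0, 2, 5 and 3 at T1D, 95, 224 and 169 at T1W, then 41, 59 and 73 at T2W. The T1D libraries of *asp1∆* thus held 10 reads in all. In *arp42∆* the reads were 3, 5 and 1, then 7, 9 and 15, then 15, 18 and 41, then 40, 39 and 30. In *ies2∆* they were 0 in all cultures at T0, 11, 4 and 13 at T1D and 40, 37 and 22 at T1W.

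SPBPB21E7.10, which lies on the forward strand, had the fewest T0 reads. In *smt0* it had no read at T0, 13, 14 and 2 at T1D, 424, 50 and 177 at T1W, then 780, 129 and 183 at T2W. In *hht2∆* it had no read at T0, 125, 93 and 30 at T1D, 940, 1485 and 666 at T1W, then 326, 791 and 393 at T2W. Unlike the other members in *hht2∆*, it had fewer reads in A and C at T2W than in any culture at T1W. In *pht1∆* the reads were 0, 1 and 7, then 24, 20 and 53, then 427, 322 and 322, then 346, 636 and 279. In *iec1∆* they were 0, 0 and 2, then 22, 68 and 47, then 89, 106 and 252, then 342, 71 and 267. In *asp1∆* they were 0 in all cultures at T0, 8, 5 and 6 at T1D, 96, 240 and 156 at T1W, then 83, 94 and 103 at T2W. The T1D and T2W cultures of *asp1∆* were close to each other. In *arp42∆* the reads were 1, 1 and 0, then 10, 4 and 10, then 8, 8 and 71, then 58, 71 and 95. In *ies2∆* they were 0, 1 and 1 at T0, 51, 114 and 36 at T1D and 269, 256 and 177 at T1W.

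SPBPB21E7.11 had the highest total of the members. In *smt0* it had 0, 3 and 1 reads at T0, 108, 103 and 20 at T1D, 452, 104 and 222 at T1W, then 825, 174 and 161 at T2W. In *hht2∆* it had 2, 1 and 3 reads at T0, 115, 173 and 62 at T1D, 506, 858 and 491 at T1W, then 5294, 1095 and 3293 at T2W. The *hht2∆* cultures A and C at T2W again stood above B. In *pht1∆* the reads were 2, 9 and 15, then 126, 134 and 131, then 1220, 976 and 433, then 1198, 1967 and 901. In *iec1∆* they were 4, 3 and 2, then 48, 143 and 110, then 200, 220 and 360, then 2433, 191 and 2263. The T2W split of *iec1∆* seen for *eno102*, A and C high and B low, recurred. In *asp1∆* the reads were 5, 5 and 6, then 74, 56 and 48, then 422, 886 and 614, then 240, 207 and 240. In *arp42∆* they were 13, 9 and 16, then 216, 118 and 129, then 96, 117 and 219, then 237, 305 and 287. In *ies2∆* they were 4, 4 and 3 at T0, 74, 41 and 69 at T1D and 252, 213 and 167 at T1W.

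In *smt0*, where the members were chosen, *eno102* went on the relative scale from 0.482 ± 0.440 CPM at T0 to 3.55 ± 1.28 at T1D, 71.6 ± 75.1 at T1W and 161 ± 151 at T2W (mean ± SD, n = 3 here and below). SPBPB21E7.11 went from 0.174 ± 0.175 to 8.55 ± 3.17, 53.0 ± 37.4 and 101.5 ± 88.5 CPM over the same times. From no read at T0, SPBPB21E7.02c reached 1.07 ± 1.06, 8.11 ± 1.80 and 15.2 ± 15.5 CPM, and SPBPB21E7.10 reached 1.04 ± 0.450, 43.6 ± 40.8 and 96.6 ± 84.4 CPM. All means were higher at each later time, with SDs at T2W about as large as the means. Lower bounds on the relative scale were taken against a floor of 3 reads over the T0 group. SPBPB21E7.10 was at least 8.04-fold, 301-fold and 698-fold higher at T1D, T1W and T2W, and SPBPB21E7.02c at least 8.31-fold, 56.9-fold and 112-fold. Per kb of exon, SPBPB21E7.10 ranked 538 and *eno102* 886 among 6592 genes with a read in *smt0* at T2W, where at T0 *eno102* ranked 6421 of 6662. On the spike-in scale, the 4 members summed were at 523 ± 462 ERCC CPM at T0 and at 6376 ± 6251, 5230 ± 7486 and 10030 ± 10820 later, while the highest culture exceeded the lowest 10.7-fold, 29.9-fold and 12-fold. The wild type spread per spike-in is thus as large as its change between T1D and T2W. Culture C at T1W was at 464 ERCC CPM, below T0 cultures B and C at 697 and 873. Per spike-in, SPBPB21E7.10 was at least 3.41-fold, 3.2-fold and 17.5-fold higher at T1D, T1W and T2W. SPBPB21E7.02c was at least 3.53-fold and 2.8-fold higher at T1D and T2W, with no bound above 1 at T1W.

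**Figure D3:**
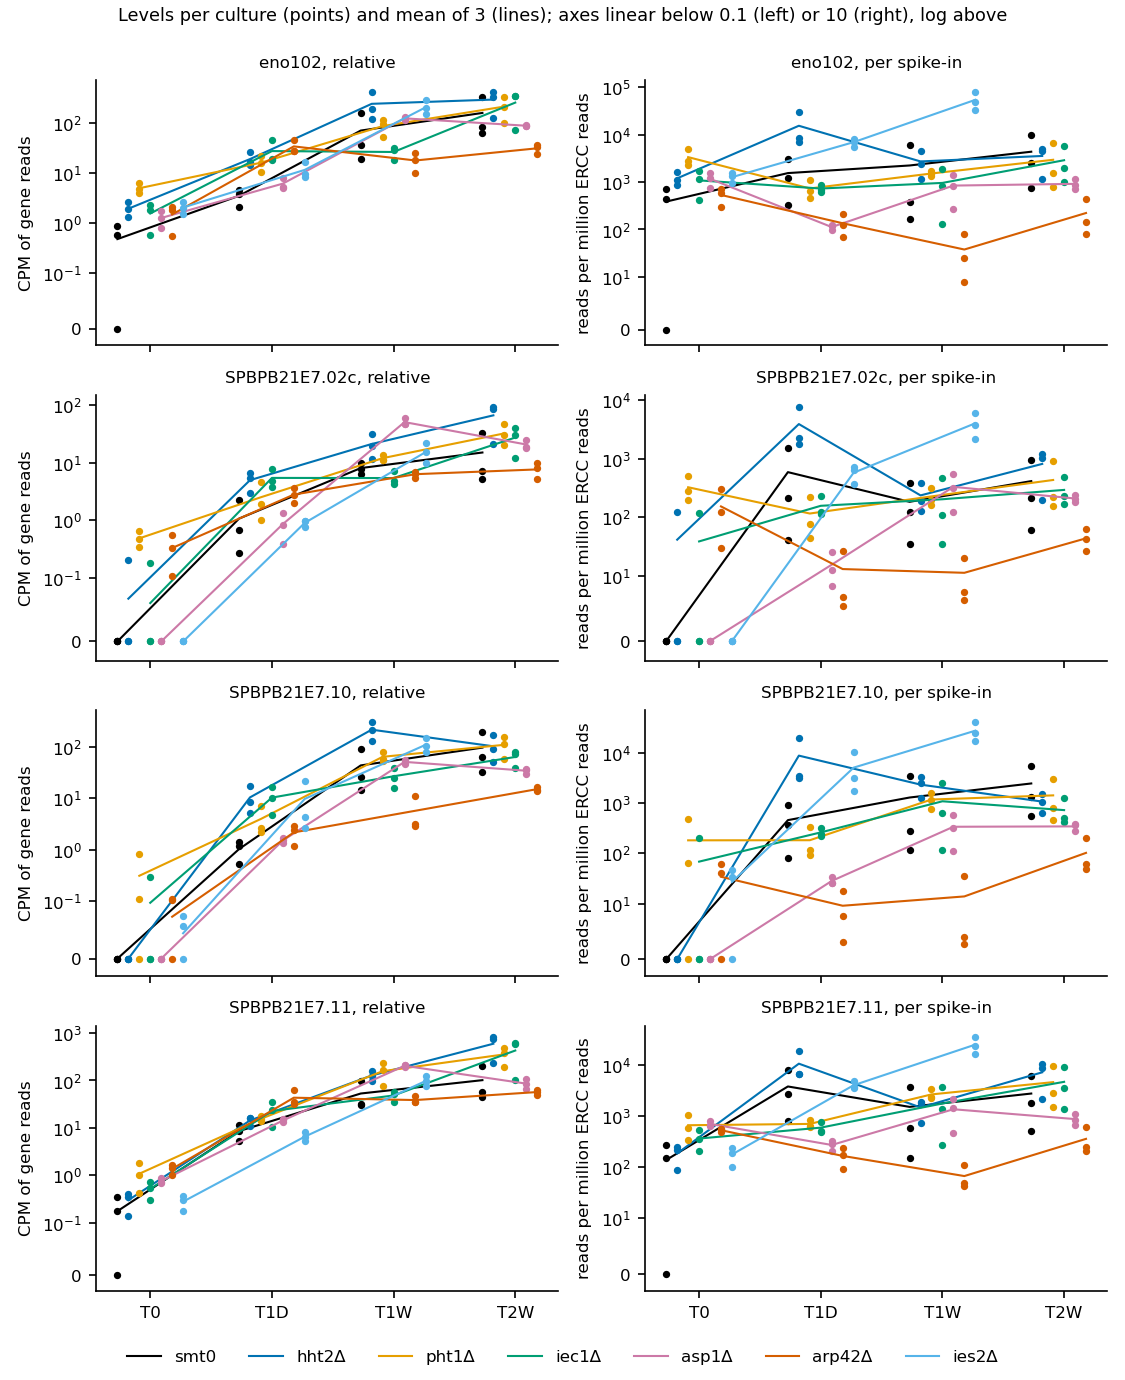
Levels of each member per culture (points) and the mean of 3 cultures (lines) by time and strain, on the relative scale (left) and in ERCC CPM (right). Axes are linear below 0.1 (left) or 10 (right) and logarithmic above. On the left every culture after T0 lies above the T0 cultures of its strain, which for *eno102* reach at most 6.39 CPM. On the right the *arp42∆* lines are the lowest at T1W and the *ies2∆* lines the highest, the latter after a shift of the second batch.

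In the mutants, all 4 members were called higher than at the strain's own T0 on the relative scale in all 17 comparisons, 68 of 68 tests by edgeR's quasi-likelihood test, while between 25.7% and 36.5% of the 6608 genes tested were called higher in the same comparisons. SPBPB21E7.02c and SPBPB21E7.10 passed the count filter only through libraries after T0. Where their T0 group had no read, a call of lower was not possible. The share is over all genes, most of which had more reads at T0. In each of the 68, every later culture lay above every T0 culture. Per spike-in, by contrast, 32 of the 68 were called higher and 8 lower, while 0% to 7.2% of all genes were called higher and 1.95% to 99.5% lower in the same comparisons. Leaving out the library labelled *ies2∆* T0 C, or those labelled *hht2∆* A at all times and C at T2W, gave 68 calls of higher on the relative scale and 31 per spike-in each time. Of the members, *eno102* was called higher per spike-in in 4 of 17 comparisons and lower in 4, SPBPB21E7.02c in 8 and 2, SPBPB21E7.10 in 11 and 0 and SPBPB21E7.11 in 9 and 2.

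**Figure D4:**
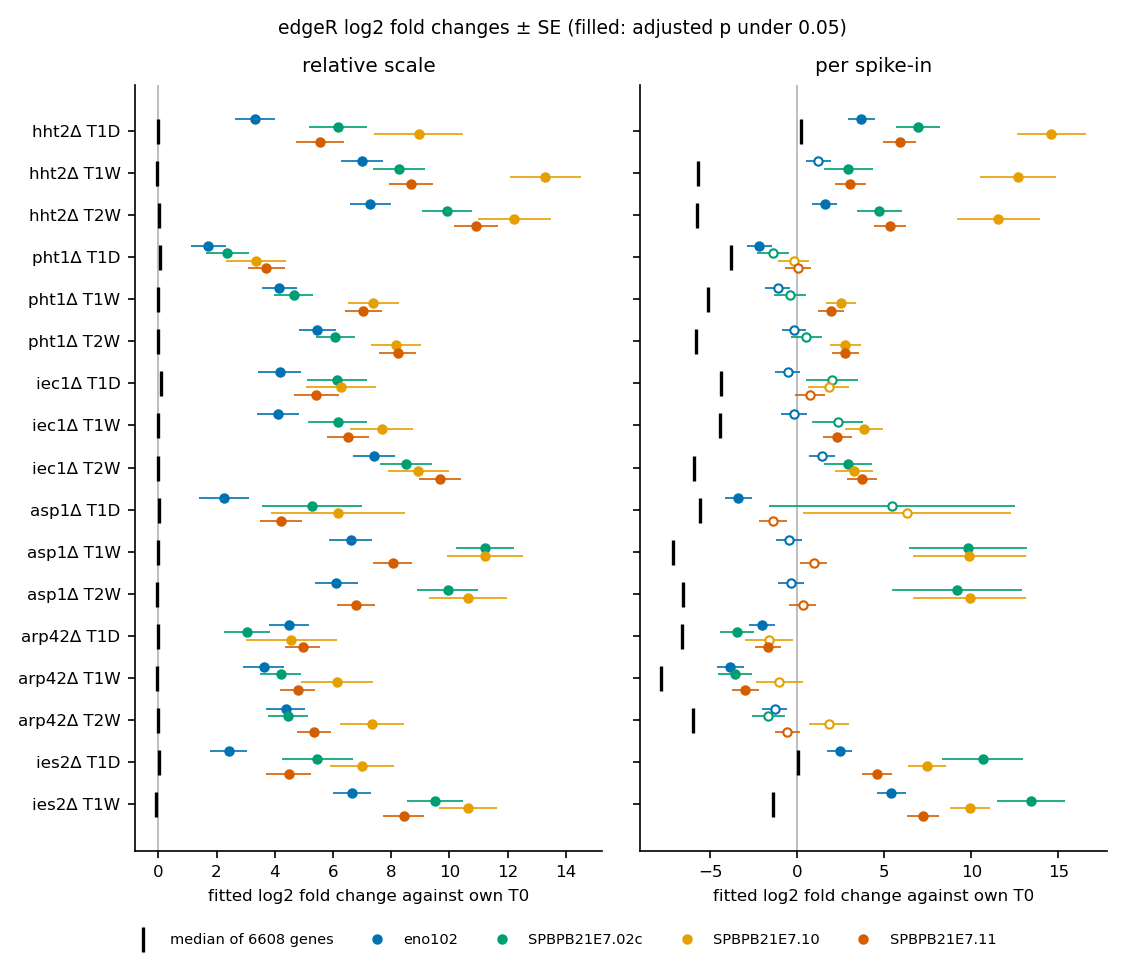
edgeR log2 fold changes ± SE of the 4 members against the strain's own T0 for 17 comparisons, on the relative scale (left) and per spike-in (right), filled where the adjusted p was under 0.05 over 6608 genes, with the median of all genes tested as a black bar. On the left all 68 points are filled and right of 0. On the right the black bars sit between -7.81 and 0.23, and each of the 68 points lies to the right of its bar. Fitted values of SPBPB21E7.02c and SPBPB21E7.10 against T0 groups with 3 or fewer reads give no bound.

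The *hht2∆* mutant lacks 1 of the genes for histone H3. On the relative scale *eno102* rose from 1.96 ± 0.631 CPM to 19.3 ± 6.29, 246 ± 154 and 299 ± 153 CPM, with log2 fold changes of 3.33 ± 0.69 (SE), 7.0 ± 0.71 and 7.28 ± 0.71 (adjusted p = 3.83e-05, 6.96e-13 and 9.99e-14). SPBPB21E7.11 rose from 0.298 ± 0.142 CPM to 14.3 ± 2.98, 127 ± 33.1 and 596 ± 316 CPM. At T2W cultures A and C, both with reads on *hht2*, were at 807 and 748 CPM and B at 233 CPM. SPBPB21E7.10, with no read at T0, was at least 72.5-fold, 1410-fold and 669-fold higher. All 4 members were called higher at each time, beside 29%, 30.6% and 36.5% of all genes tested at T1D, T1W and T2W. Per spike-in, 4 of 4 were called higher at T1D, where 7.2% of all genes were higher and 2.81% lower. At T1W, 3 of 4 were called higher (0.151% of all genes, with 97.6% lower), and *eno102* had a log2 fold change of 1.20 ± 0.72 (adjusted p = 0.0985). At T2W, 4 of 4 were called higher (0.515% of all genes, with 95.4% lower), SPBPB21E7.11 by 5.33 ± 0.92 and *eno102* by 1.58 ± 0.73 on the log2 scale (adjusted p = 1.03e-08 and 0.0305). Per spike-in SPBPB21E7.10 was at least 66.9-fold, 20.4-fold and 12.3-fold higher at the 3 times. *eno102* at T1W was called without T1W B (1.57, adjusted p = 0.0446). Its call at T2W was lost without A (1.65, adjusted p = 0.07) and without A at all times and C at T2W (0.26, adjusted p = 0.811), as well as without T0 B (1.38), T0 C (1.55), T2W A (1.39) or T2W C (1.24). Leaving out A and C at T2W leaves B as the only *hht2∆* library at T2W, and the p-values then take the spread from the other groups. SPBPB21E7.11 had log2 fold changes of 9.74 (relative) and 3.82 (per spike-in) at T2W without them, beside 10.91 and 5.33 with all libraries. That of SPBPB21E7.02c at T1W, a 7.16-fold ratio from 1 read at T0 with a 95% counting interval of 1.28 to 284, was lost without T0 B (adjusted p = 0.136), T0 C (0.161) or T1W C (0.109).

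The *ies2∆* mutant, sampled to T1W, lacks a subunit of the Ino80 complex. *eno102* rose on the relative scale from 2.07 ± 0.571 CPM to 11.7 ± 4.74 and 213 ± 69.1 CPM, log2 fold changes of 2.42 ± 0.63 and 6.65 ± 0.66 (adjusted p = 0.000882 and 6.45e-13). SPBPB21E7.11 rose from 0.277 ± 0.0942 CPM to 6.52 ± 1.42 and 99.2 ± 25.1 CPM. SPBPB21E7.02c, without a T0 read, was at least 13.0-fold and 212-fold higher. All 4 were called higher at both times, beside 27.6% and 25.7% of all genes. Per spike-in, all 4 were also called higher at both times, where 4.59% of all genes were higher and 1.95% lower at T1D, and 2.94% higher and 40.6% lower at T1W. The log2 fold changes of *eno102* were 2.45 ± 0.73 and 5.41 ± 0.82 and those of SPBPB21E7.11 were 4.57 ± 0.87 and 7.22 ± 0.94. The call of *eno102* at T1D was lost without the library labelled *ies2∆* T0 C (2.61, adjusted p = 0.0543), without T0 A (2.48), T0 B (2.27) or T1D B (2.33). All *ies2∆* libraries had been shifted together, which departs from the study's scaling, given its counts of genes against wild type at T1D and T1W. The study's account can also be read as a shift of T0 alone. With only T0 shifted, *eno102* at T1D had a log2 fold change of -1.26 (adjusted p = 0.0849) and SPBPB21E7.11 one of 0.87 (adjusted p = 0.301).

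In *pht1∆*, which lacks H2A.Z, *eno102*, SPBPB21E7.02c and SPBPB21E7.10 had their highest mean T0 levels of all strains on the relative scale. On that scale SPBPB21E7.11 was higher at T0 in *arp42∆*. *eno102* was at 5.03 ± 1.24 CPM at T0, then at 16.3 ± 6.11, 88.0 ± 32.8 and 217 ± 116 CPM, log2 fold changes of 1.72 ± 0.61, 4.16 ± 0.61 and 5.46 ± 0.63 (adjusted p = 0.0134, 3.26e-08 and 4.44e-11). SPBPB21E7.11 rose from 1.07 ± 0.678 CPM to 15.5 ± 1.64, 157 ± 76.8 and 355 ± 151 CPM. SPBPB21E7.10 rose from 0.314 ± 0.450 CPM to 3.99 ± 2.64, 64.0 ± 14.7 and 109.5 ± 49.2 CPM. All 4 were called higher at each time on the relative scale, beside 27.5%, 30.5% and 32.1% of all genes. At T1D those calls were lost for *eno102* without T0 B (1.57, adjusted p = 0.0588) or T1D C (1.42, adjusted p = 0.0696), and for SPBPB21E7.02c without T1D C (1.63, adjusted p = 0.0938). Per spike-in at T1D no member was called higher (0.197% of all genes were) and *eno102* alone was called lower (94.4% of all genes were), with a log2 fold change of -2.17 ± 0.72 (adjusted p = 0.00282). SPBPB21E7.10 and SPBPB21E7.11 were called higher at T1W, by 2.50 ± 0.87 and 1.95 ± 0.76 (0.151% of all genes higher and 97.1% lower), and at T2W, by 2.77 ± 0.87 and 2.75 ± 0.78 (0.166% higher and 97.4% lower). Without T2W B the call of SPBPB21E7.10 at T2W was lost (1.59, adjusted p = 0.0812), and without T1D C SPBPB21E7.02c was called lower at T1D (-2.28, adjusted p = 0.0333).

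In *iec1∆*, *eno102* rose on the relative scale from 1.57 ± 0.888 CPM to 27.8 ± 15.3, 26.7 ± 7.40 and 260 ± 161 CPM, log2 fold changes of 4.17 ± 0.73, 4.12 ± 0.73 and 7.41 ± 0.74 (adjusted p = 2.72e-06, 2.37e-06 and 3.41e-13). The level of *eno102* was thus about the same at T1D and T1W. SPBPB21E7.11 rose from 0.515 ± 0.211 CPM to 22.7 ± 12.2, 48.2 ± 10.9 and 428 ± 283 CPM, and the T2W mean joined 576 and 607 CPM in A and C with 103 CPM in B. SPBPB21E7.10, with 2 reads at T0, had ratios of 90.8, 249 and 623 with 95% counting intervals of 24.7 to 757, 68.4 to 2060 and 172 to 5150. All 4 were called higher at each time, beside 28.7%, 29.5% and 31.9% of all genes. Per spike-in at T1D no member was called in either direction, where 0.106% of all genes were higher and 95.9% lower. At T1W SPBPB21E7.10 and SPBPB21E7.11 were called higher (0.242% of all genes, with 96.4% lower), SPBPB21E7.11 by 2.31 ± 0.84. At T2W all but *eno102* were called higher (0.242% of all genes, with 97.4% lower), SPBPB21E7.11 by 3.73 ± 0.85, and *eno102* had a value of 1.43 ± 0.74 (adjusted p = 0.0538). Without T1W C the call of SPBPB21E7.11 at T1W was lost (1.20, adjusted p = 0.173), and that of SPBPB21E7.02c at T2W was lost without T0 A, T0 C or T2W A (adjusted p = 0.114, 0.14 and 0.113). By contrast *eno102* at T2W was called without T0 A (1.89), T2W B (1.84) or T2W C (1.63), SPBPB21E7.02c at T1W without T0 B (adjusted p = 0.04) or T1W A (0.0458), and SPBPB21E7.10 at T1D without T0 C (0.0212).

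In *asp1∆* the mean level of each member was highest at T1W on the relative scale. *eno102* rose from 1.28 ± 0.463 CPM to 6.22 ± 1.63, 126 ± 7.08 and 89.5 ± 1.38 CPM, log2 fold changes of 2.26 ± 0.85, 6.61 ± 0.73 and 6.12 ± 0.73 (adjusted p = 0.0199, 1.32e-11 and 2.22e-10). SPBPB21E7.11 rose from 0.751 ± 0.102 CPM to 14.3 ± 0.864, 204 ± 14.4 and 85.8 ± 20.9 CPM. SPBPB21E7.02c and SPBPB21E7.10 had no read at T0 and were at least 5.72-fold and 10.9-fold higher at T1D. At T1W the bounds were 363-fold and 366-fold, and at T2W they were 150-fold and 242-fold. All 4 were called higher at each time, beside 27.2%, 29.2% and 26.9% of all genes. At T1D the call of *eno102* was lost without T0 B (2.01, adjusted p = 0.0699) or T1D C (2.05, adjusted p = 0.0665), and that of SPBPB21E7.10 without T0 B (adjusted p = 0.0504). Per spike-in at T1D no member was called higher (0.0757% of all genes were) and *eno102* was called lower (97.9% of all genes were), by -3.37 ± 0.80 (adjusted p = 2.42e-05). SPBPB21E7.02c and SPBPB21E7.10 were called higher at T1W, at least 1.82-fold and 1.83-fold (0.106% of all genes higher and 98.4% lower), and at T2W, at least 1.61-fold and 2.61-fold (0.121% higher and 98.1% lower). These bounds hold for the summed cultures. Culture C at T1W, with 169 and 156 reads, lay below the T0 floor for both genes. *eno102* had values of -0.48 ± 0.73 and -0.35 ± 0.73 at T1W and T2W and SPBPB21E7.11 of 0.96 ± 0.78 and 0.32 ± 0.78, none of them called.

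In *arp42∆* the fold changes at T2W were the smallest of the 5 mutants sampled then for *eno102*, SPBPB21E7.02c and SPBPB21E7.11, a difference that was tested only against *hht2∆* levels. *eno102* went from 1.5 ± 0.827 CPM to 34.6 ± 10.6, 18.0 ± 7.65 and 31.6 ± 6.22 CPM on the relative scale, log2 fold changes of 4.50 ± 0.69, 3.62 ± 0.70 and 4.37 ± 0.68 (adjusted p = 1.11e-07, 1.20e-05 and 1.68e-07). SPBPB21E7.11 went from 1.36 ± 0.342 CPM to 43.3 ± 17.1, 38.6 ± 6.38 and 57.0 ± 7.10 CPM. SPBPB21E7.02c, with 9 reads at T0, had log2 fold changes of 3.04 ± 0.79, 4.20 ± 0.72 and 4.46 ± 0.69. SPBPB21E7.10, with 2 reads at T0, had ratios of 30.6, 104 and 211 with 95% counting intervals of 7.61 to 267, 27.9 to 871 and 57.8 to 1760. All 4 were called higher at each time, beside 30.2%, 29.1% and 29.1% of all genes. Per spike-in 0% of all genes were called higher at any of the 3 times, and 98.7%, 99.5% and 98.6% lower. Of the members, *eno102*, SPBPB21E7.02c and SPBPB21E7.11 were called lower at T1D, by -2.01 ± 0.74, -3.45 ± 1.00 and -1.68 ± 0.74, and at T1W, by -3.83 ± 0.78, -3.57 ± 0.98 and -2.98 ± 0.77. No member was called at T2W, where *eno102* had a value of -1.29 ± 0.72 (adjusted p = 0.0748) and SPBPB21E7.11 one of -0.56 ± 0.73 (adjusted p = 0.442). SPBPB21E7.11 lost its T1D call without T1D B (-1.38, adjusted p = 0.1), while *eno102* at T2W was called lower without T0 B (-1.55) or T2W C (-2.26) and SPBPB21E7.02c without T0 C (-2.25).

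The other 5 mutants were then set against *hht2∆* at the same time, since *smt0* had chosen the genes and *hht2∆* had not. These comparisons share the *hht2∆* libraries. Per spike-in at T1D, *pht1∆*, *iec1∆*, *asp1∆* and *arp42∆* each had all 4 members called lower than *hht2∆*, where 97.4%, 97.2%, 98% and 99.4% of all genes were lower too. *eno102* at T1D was at 15400 ± 13110 ERCC CPM in *hht2∆*, against 734 ± 331 for *pht1∆*, 731 ± 137 for *iec1∆*, 113 ± 13.8 for *asp1∆* and 136 ± 71.0 for *arp42∆*. The log2 differences of *eno102* were -4.38 ± 0.78, -4.39 ± 0.78, -7.08 ± 0.88 and -6.82 ± 0.87 in this order. At T1W and T2W no member was called lower in *pht1∆* (0.0303% and 1.12% of all genes) or *iec1∆* (0.0303% and 0.0454%). In *asp1∆* SPBPB21E7.10 was called lower at T1W (-2.80 ± 0.74, 7.54% of all genes) and SPBPB21E7.11 at T2W (-3.05 ± 0.74, 5.08% of all genes). In *arp42∆* all 4 were called lower at T1W (91.3% of all genes), by -4.34 ± 0.85 to -7.39 ± 0.92, and at T2W (13.6% of all genes), by -3.42 ± 0.77 to -4.35 ± 0.78. In *ies2∆* none was called lower at T1D or T1W (1.23% and 0% of all genes), and all 4 were called higher at T1W, by 3.58 ± 0.77 to 4.32 ± 0.77, beside 97.2% of all genes. With the *ies2∆* libraries not shifted, none of these 4 was called and SPBPB21E7.10 had a value of -0.13, while at T1D all 4 were called lower, *eno102* by -4.84. Without the libraries labelled *hht2∆* A at all times and C at T2W, which leaves 1 *hht2∆* library at T2W and takes the spread from the other groups, 22 of the 26 calls of lower were made: *eno102*, SPBPB21E7.02c and SPBPB21E7.11 in *arp42∆* at T2W (-2.42, -2.18 and -2.62) and SPBPB21E7.11 in *asp1∆* at T2W (-1.32) were lost. SPBPB21E7.10 in *asp1∆* at T1W was lost without T1W A (adjusted p = 0.0512) or T1W C (0.0979).

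On the relative scale, *arp42∆* stood below *hht2∆* in all 4 members at T1W (7.69% of all genes were lower) and at T2W (25.9%). The T2W differences were -3.24 ± 0.55 for *eno102*, -3.14 ± 0.50 for SPBPB21E7.02c, -2.75 ± 0.58 for SPBPB21E7.10 and -3.39 ± 0.46 for SPBPB21E7.11. At T1W SPBPB21E7.10 was at 5.75 ± 4.69 CPM in *arp42∆* and 215 ± 85.4 CPM in *hht2∆*, a difference of -5.02 ± 0.66 (adjusted p = 2.98e-07). At T1D in *arp42∆* SPBPB21E7.10 was called lower (-2.24 ± 0.79, 12.7% of all genes) and SPBPB21E7.11 higher (1.58 ± 0.47, 15.6% of all genes). In *asp1∆* all 4 were called lower at T2W (30.9% of all genes), SPBPB21E7.02c and SPBPB21E7.10 at T1D (-2.60 ± 0.71 and -2.77 ± 0.82, 5.69%), and SPBPB21E7.10 at T1W (-2.07 ± 0.55, 26.9%), when SPBPB21E7.02c was called higher (1.24 ± 0.46, 26.8%). In *iec1∆* 3 members were called lower at T1W (0.363% of all genes): *eno102* by -3.20 ± 0.55, SPBPB21E7.10 by -2.99 ± 0.56 and SPBPB21E7.02c by -1.97 ± 0.50. None was called lower in *iec1∆* at T1D (1.48%) or T2W (6.45%). In *pht1∆* SPBPB21E7.10 was called lower at T1W (-1.75 ± 0.53, adjusted p = 0.0424, 2.6% of all genes), and none at T1D (2.85%) or T2W (17.8%). In *ies2∆* SPBPB21E7.02c was called lower at T1D (-2.43 ± 0.59, 18.6%) and none at T1W (9.46%).

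Several of these relative calls were lost when libraries were left out, with differences in the same direction. Without the libraries labelled *hht2∆* A at all times and C at T2W, again with 1 *hht2∆* library at T2W, 15 of 21 calls of lower and 1 of 2 calls of higher were made. SPBPB21E7.10 was then lost in *pht1∆* at T1W (-1.43), *asp1∆* at T1D (-2.20) and *arp42∆* at T1D (-1.68), *eno102* and SPBPB21E7.02c in *asp1∆* at T2W (-0.52 and -0.03), SPBPB21E7.02c in *arp42∆* at T2W (-1.48), and the higher SPBPB21E7.02c of *asp1∆* at T1W (0.96). The call of SPBPB21E7.02c in *iec1∆* at T1W was lost without *hht2∆* T1W B (-1.53, adjusted p = 0.167) or any of the 3 *iec1∆* T1W cultures (-1.84 to -2.24), and that in *arp42∆* at T1W without *hht2∆* T1W B (-1.33), *arp42∆* T1W A (-1.69) or T1W B (-1.83). SPBPB21E7.10 in *pht1∆* at T1W and in *asp1∆* and *arp42∆* at T1D lost its call without any 1 of the mutant's own cultures at that time, with log2 differences of -1.63 to -1.95, -2.69 to -2.82 and -1.97 to -2.47 in this order, and without *hht2∆* A at that time, or in *pht1∆* also without *hht2∆* T1W B. The higher SPBPB21E7.02c of *asp1∆* at T1W was lost without *hht2∆* T1W A (0.96), T1W C (1.19) or *asp1∆* T1W C (1.12), SPBPB21E7.02c in *asp1∆* at T1D without *asp1∆* T1D A (-2.18), SPBPB21E7.10 in *asp1∆* at T2W without *hht2∆* T2W B (-1.01), and the higher SPBPB21E7.11 of *arp42∆* at T1D without *arp42∆* T1D A (1.21). Without *hht2∆* T2W B, SPBPB21E7.02c was called lower in *pht1∆* (-1.47) and *iec1∆* (-1.68) at T2W and SPBPB21E7.11 in *pht1∆* (-1.13). *eno102* and SPBPB21E7.10 in *iec1∆* at T1W, and all 4 members in *arp42∆* at T2W, kept their calls without each culture in turn.

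The mutants are set beside *smt0* as values only. On the spike-in scale *eno102* at T0 stood at 388 ± 366 ERCC CPM in *smt0*, beside 3361 ± 1474 in *pht1∆*, 1270 ± 301 in *ies2∆*, 1200 ± 390 for *hht2∆*, 1173 ± 401 for *asp1∆*, 1086 ± 639 for *iec1∆* and 535 ± 207 for *arp42∆*. The cultures of *hht2∆*, *asp1∆*, *iec1∆* and *ies2∆* overlapped one another. At T2W on the same scale it stood at 4369 ± 4779 in *smt0*, 3555 ± 2074 in *hht2∆*, 2953 ± 3106 for *pht1∆*, 2889 ± 2444 for *iec1∆*, 918 ± 220 for *asp1∆* and 223 ± 193 for *arp42∆*. All 3 *arp42∆* cultures at T2W, at 80.2 to 442, lay below all 3 *smt0* cultures, at 744 to 9784. The fitted log2 differences from *smt0* at T2W were between -0.60 and -0.30 for *eno102* in *hht2∆*, *pht1∆* and *iec1∆*, -2.25 ± 0.70 in *asp1∆* and -4.30 ± 0.77 in *arp42∆*.

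The overlapping pair SPBPB21E7.10 and SPBPB21E7.11 did not keep a fixed proportion. In *smt0* the reads of SPBPB21E7.10 divided by those of SPBPB21E7.11 were 0.12, 0.136 and 0.1 in cultures A, B and C at T1D, 0.938, 0.481 and 0.797 at T1W, then 0.945, 0.741 and 1.14 at T2W. The T1D cultures of *smt0* lay below all its later ones. In *hht2∆* the ratio was 1.09, 0.538 and 0.484 at T1D and 1.86, 1.73 and 1.36 at T1W, then 0.0616 and 0.119 in A and C at T2W and 0.722 in B. The *iec1∆* libraries split the same way at T2W, with 0.141 and 0.118 in A and C and 0.372 in B. In *asp1∆* it rose from 0.0893 to 0.125 at T1D over 0.227 to 0.271 at T1W to 0.346 to 0.454 at T2W, with no overlap between times. In *arp42∆* it was 0.0339 to 0.0775 at T1D and 0.233 to 0.331 at T2W, and in *pht1∆* it stayed between 0.149 and 0.744. In *ies2∆* it was 0.689 and 0.522 in A and C at T1D and 2.78 in B, the *ies2∆* T1D library with the most of *ies2*. At T1W it was 1.06 to 1.2. Because both genes count reads of opposite strands over 496 shared bases, the ratio depends on the strand assignment of the counting.

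**Figure D5:**
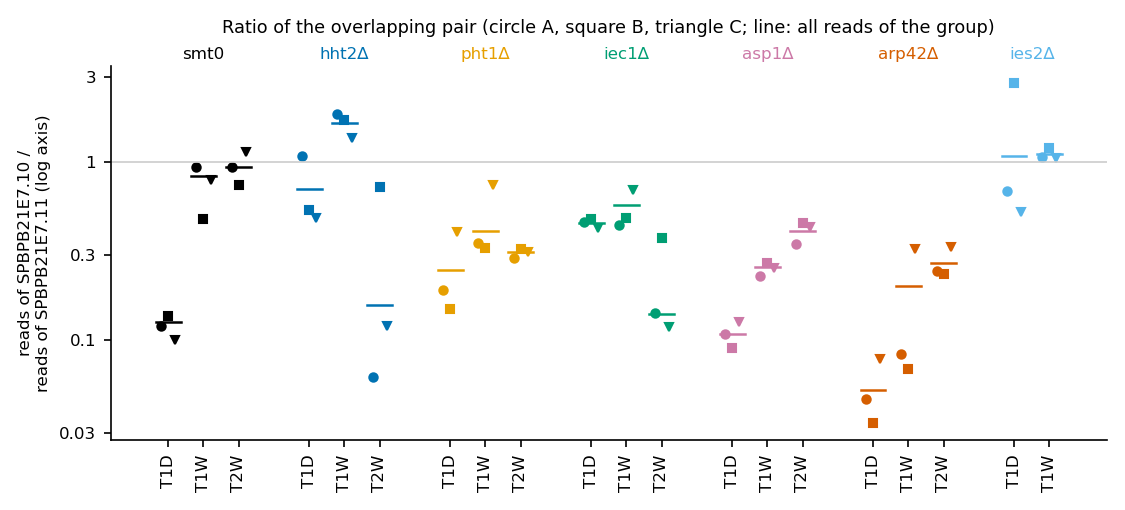
Reads of SPBPB21E7.10 divided by reads of SPBPB21E7.11 in each library after T0, by strain and time, on a logarithmic axis. Circles, squares and triangles are cultures A, B and C, and lines give the ratio of the summed reads of the group. The ratio was above 1 in all *hht2∆* cultures at T1W and below 0.1 in all *arp42∆* cultures at T1D.

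Strand assignment was checked on nested genes. In 321 of 531 pairs of a gene nested in an exon of another on the opposite strand, the nested gene had more reads than its host in at least 1 library, which counting without regard to strand could not give. *eno102*-antisense-1 had more reads than *eno102* in 21 of 81 libraries. Its reads in *smt0* were 6, 9 and 9 at T0, 53, 62 and 24 at T1D, 28, 26 and 79 at T1W, then 43, 40 and 15 at T2W. It was called higher than own T0 on the relative scale in 16 of 17 comparisons (median log2 fold change 2.19), and per spike-in higher in 1 and lower in 14. Of all genes, 25.7% to 36.5% were called higher on the relative scale in these comparisons. Per spike-in, 0% to 7.2% of all genes were called higher and 1.95% to 99.5% lower.

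The members were compared in their order of cultures and in their levels across groups. In 20 groups all members had reads in all cultures. The same culture was highest for all 4 members in 13 of these groups per spike-in and 10 on the relative scale, and lowest in 9 and 7. Per spike-in the ERCC size divides every gene of a library, so other genes can share this order. How many do was not computed on either scale. Across the 27 group means on the relative scale, log2 levels of pairs of members correlated with Pearson's r of 0.94 to 0.97, a description over points that share libraries and a common T0 start. The 5 other genes whose pattern was most like the sum of the members, of 6077 ranked over the 27 groups, were SPAC869.09 (a Con-6 family protein, r = 0.96), SPAC869.06c (with a cation-binding HHE domain, r = 0.96), *prl65* (r = 0.96), SPCC569.09 (r = 0.96) and *grx2*-antisense-1 (r = 0.95). SPAC869.09 and SPAC869.06c lie on chromosome I at 5496844 to 5497448 and 5502560 to 5503291.

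Of 47 other genes within 50000 bases, 31 could be tested, 11 to the left, 1 within and 19 to the right. On the relative scale 171 of their 527 tests against own T0 were called higher (32.4%) and 188 lower (35.7%), beside 25.7% to 36.5% and 26.7% to 34.9% of all genes in the same comparisons. Per spike-in 13 were called higher and 392 lower, and 9 and 388 without the libraries labelled *hht2∆* A at all times and C at T2W. With all libraries the spike-in calls were 2.47% and 74.4% of the tests, beside 0% to 7.2% and 1.95% to 99.5% of all genes. Directly to the left, SPBPB8B6.06c (a fluoride export channel) was called lower in 7 comparisons and higher in 0 on the relative scale, and SPBPB8B6.05c (an L-asparaginase) lower in 11 and higher in 0, with median log2 fold changes of -0.79 and -0.85. Directly to the right, the non-coding SPNCRNA.1303 was called higher in 16 of 17, from T0 groups with 0 to 3 reads whose fits give no bound, while SPBPB21E7.04c, a catechol O-methyltransferase, was called higher in 5 and lower in 4. Among the genes farther to the left, from SPBC1348.05 to *grt1*-antisense-1, none was called lower in any comparison on the relative scale. Their totals over all 81 libraries went from 240 to 10760 reads, and a gene with few T0 reads can hardly be called lower. Reads at T0 were not compared between the left and right sides. To the right, from SPBPB10D8.01 on, at most 2 calls of higher were made per gene, and *aat1*, the last of them, was called lower in 16.

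Of the 12 glycolysis genes other than *eno102*, 1 behaved like it on the relative scale. *gpd3*, a glyceraldehyde 3-phosphate dehydrogenase, was called higher than own T0 in 17 of 17 comparisons, with log2 fold changes of 2.24 to 5.23, and the other 11 in none, while they gave 150 calls of lower. Of all genes, 25.7% to 36.5% were called higher and 26.7% to 34.9% lower in these comparisons. The other enolase gene *eno101* was called lower in 15 of 17 and higher in 0, with a median log2 fold change of -1.33, beside 4.37 for *eno102*. In *smt0* *eno101* had 25644, 30712 and 18951 reads at T0 and 4279, 7070 and 4420 at T2W, so that even at T2W it had more reads than *eno102* in every culture of *smt0*. Of all 81 libraries, only *hht2∆* A and C at T2W had more reads on *eno102*, 2237 and 1877 beside 2081 and 1342 on *eno101*. Both are among the doubtful libraries with reads on *hht2*. *hht2∆* B at T2W had 603 reads on *eno102* and 5499 on *eno101*. Per spike-in, 0% to 7.2% of all genes were called higher and 1.95% to 99.5% lower in the same comparisons. On that scale *eno101* was called lower in 15 comparisons and *gpd3* higher in 3 and lower in 12, and the 12 genes gave 3 calls of higher and 177 of lower. Without the libraries labelled *hht2∆* A at all times and C at T2W these were 3 and 175, and 17 and 149 on the relative scale.

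The 13 other genes that the study had named as a quiescence core, a list chosen on these samples and so no independent evidence of direction, were called higher on the relative scale in 221 of 221 tests and per spike-in in 101, with 34 lower (221, 98 and 31 without the libraries labelled *hht2∆* A at all times and C at T2W). Of all genes, 25.7% to 36.5% were called higher on the relative scale, and 0% to 7.2% higher and 1.95% to 99.5% lower per spike-in. The fewest calls of higher per spike-in were those of SPBC1652.02-antisense-1 (3 higher and 9 lower) and the galactosidase gene *mel1* (3 and 5), beside 4 and 4 for *eno102*. SPAC869.04 was called higher in 12 and lower in 0, beside 11 and 0 for SPBPB21E7.10. In *arp42∆* no gene of either list was called higher per spike-in at any time, as was true of all 6608 genes tested.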

How the data were processed

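The authors demultiplexed paired-end stranded RNA-seq reads with bcl2fastq 2.20.0.422, aligned them with STAR 2.7.9a to genome ASM294v2 with the ERCC sequences, and counted them over exons with featureCounts 1.5.1. The deposited values were whole-number counts per gene (7014 genes) and per ERCC transcript (92) in 81 libraries. The strand setting of the counting is not given in the sources used here. The 16 ChIP-seq samples were not analysed here.

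Counts were fitted in 1 model over all 27 groups with edgeR 4.0.16 (quasi-likelihood test, no block, R 4.3.3), for the 6608 genes above 1 CPM in 3 or more libraries. Library sizes were the ERCC totals times their TMM factors (spike-in scale), as in the study, or gene totals times TMM factors (relative scale). The *ies2∆* libraries were shifted together by 3.70 log2 units so that at T0 their mean log2 gene total over ERCC size equalled that of the first batch. With this shift, *ies2∆* against *smt0* per spike-in had 386 genes higher and 60 lower at T1D, then 6415 and 1 at T1W. The study reported most genes lower at T1D and few called in either direction at T1W. The shift thus departs from the study's scaling, and spike-in values of *ies2∆* depend on it. Adjusted p-values are Benjamini-Hochberg values over all genes tested in a comparison, two-sided, with calls at 0.05. Values are given as mean ± SD over cultures and fold changes as log2 ± SE. Where a T0 group had no read, a fold is a lower bound against 3 reads over the group, and where it had 1 to 3 reads a ratio with an exact 95% interval, which covers counting error only. Both take summed reads over summed library sizes of a group, so single cultures can lie below a bound. The cultures were split at T0, but no source says that the letters A, B and C join cultures across times, and p-values measure the spread between these libraries. Same-lettered libraries deviated together (all 3 correlations above 0.1) between *iec1∆* and *hht2∆* at T1D and T2W on both scales, with r of 0.43 to 0.72 at T2W per spike-in, and between T0 and T1D of *pht1∆* on the relative scale, and in no other comparison. No 2 libraries of a group agreed within sampling noise.

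The 4 genes, the lists and the tests were chosen with earlier results of these data known. Named genes were the members, the 2 annotated genes next to them on each side and any within their span, *eno101* and glycolysis genes called higher in most mutants on the relative scale, the 5 genes most like the summed members, and the deleted genes. A few others (*mel1*, SPBC1652.02-antisense-1, SPAC869.04, *aes1*, *aat1*, SPBPB10D8.01 and those that bound the left stretch) were named after their values were seen. Alternatives were other size factors, count filters, tests (an edgeR likelihood ratio test and DESeq2 1.42.0), only the strains compared, the *ies2∆* shift, a replicate block, SPBPB21E7.10 and SPBPB21E7.11 added, and libraries left out, of which leaving out *hht2∆* A with *hht2∆* C at T2W was added after the data were seen. Coordinates are those of the count table. RefSeq ASM294v3 matched 6846 of its 7014 genes, and 6812 shared at least 1 end. The model fit was tested on simulated data.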

Additional observations from a re-analysis of the deposited data

Results flagged for a closer look

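Per spike-in, mutants moved in opposite directions from their own T0 for 3 of the members, in the sense that all cultures lay above all T0 cultures in some mutants and below all of them in others. For *eno102* at T1D this was above in 2 mutants (*hht2∆* and *ies2∆*) and below in 3 (*pht1∆*, *asp1∆* and *arp42∆*), and at T1W above in 1 (*ies2∆*) and below in 2 (*pht1∆* and *arp42∆*). For SPBPB21E7.02c it was above in 3 mutants (*hht2∆*, *asp1∆* and *ies2∆*) and below in 1 (*arp42∆*) at both T1D and T1W, where *asp1∆* and *ies2∆* had no read at T0, so that any read placed them above. The 10 reads of *asp1∆* at T1D give no bound above 1 and were not called. For SPBPB21E7.11 it was above in 2 (*hht2∆* and *ies2∆*) and below in 2 (*asp1∆* and *arp42∆*) at T1D, and above in 3 (*hht2∆*, *pht1∆* and *ies2∆*) and below in 1 (*arp42∆*) at T1W. The place of *ies2∆* depends on the shift of its batch: with only T0 shifted, *eno102* in *ies2∆* at T1D had a log2 fold change of -1.26 against own T0. Of all genes tested, 94.4%, 97.9% and 98.7% were called lower at T1D in *pht1∆*, *asp1∆* and *arp42∆*. In *hht2∆* and *ies2∆* 2.81% and 1.95% were lower at T1D. The mutants with *eno102* or SPBPB21E7.11 below T0 at T1D were thus among those with nearly all genes lower. At T1W 97.6%, 97.1%, 98.4% and 99.5% were lower in *hht2∆*, *pht1∆*, *asp1∆* and *arp42∆*, and 40.6% in *ies2∆*. The differences between mutants were not tested as such. On the relative scale no member lay below T0 in any mutant.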

How the results depend on the processing

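The relative calls against own T0 numbered 68 of 68 under every alternative run on that scale other than leaving out 1 culture, which gave 66 to 68. Per spike-in the calls numbered 30 to 33 higher and 7 to 9 lower without 1 culture. Against *hht2∆* they numbered 4 to 4 higher and 25 to 28 lower per spike-in, and 1 to 2 higher and 18 to 23 lower on the relative scale. For the glycolysis genes the ranges were 3 to 3 and 175 to 178 per spike-in and 17 to 18 and 142 to 152 relative, for the neighbours 10 to 13 and 385 to 396, and 167 to 176 and 182 to 190, and for the core genes 98 to 103 and 30 to 37, and 220 to 221 and 0 to 0. With the *ies2∆* libraries not shifted, or only T0 shifted, 0 members instead of 4 were called higher than in *hht2∆* per spike-in, and SPBPB21E7.10 at T1W turned to -0.13 under both. With only T0 shifted, *eno102* in *ies2∆* at T1D turned to -1.26 against own T0, glycolysis calls of higher went from 3 to 1 and neighbour calls from 13 to 4. A filter of a mean of at least 10 counts, which tests fewer genes, gave 6 neighbour calls of higher per spike-in and 103 instead of 171 on the relative scale. Relative calls of higher against *hht2∆* went from 2 to 1 without *hht2∆* A, without it and C at T2W, and with SPBPB21E7.10 and SPBPB21E7.11 added. In the last case SPBPB21E7.10 in *arp42∆* at T1D turned to 0.87. A replicate block changed 2 calls: *eno102* in *arp42∆* at T2W became lower per spike-in (-1.55, adjusted p = 0.03) and SPBPB21E7.11 in *ies2∆* at T1D became lower than in *hht2∆* on the relative scale (-1.18, adjusted p = 0.0422). DESeq2 called 29 instead of 32 members higher per spike-in, without *eno102* in *hht2∆* at T2W (adjusted p = 0.0934) and SPBPB21E7.02c in *hht2∆* at T1W (0.0547) and *iec1∆* at T2W (0.0785). All 3 correlations of same-lettered deviations exceeded 0.1 in 1 of 17 relative and 0 of 17 spike-in comparisons with T0 and in 2 of 14 comparisons with *hht2∆* on each scale, and the block changed no call of a member in these. With the strains compared fitted alone, SPBPB21E7.02c in *ies2∆* at T1D was called lower than in *hht2∆* per spike-in (-2.69, adjusted p = 0.00641), as with the likelihood ratio test (0.0361), and on the relative scale it lost its call in *iec1∆* at T1W (0.172). SPBPB21E7.10 in *pht1∆* at T1W lost its relative call against *hht2∆* under the strains alone (0.0786), the likelihood ratio test (0.0661) and DESeq2 (0.0868). With SPBPB21E7.10 and SPBPB21E7.11 added, the spike-in calls of SPBPB21E7.10 in *asp1∆* at T1W and T2W were lost (1.28 and 0.80). Also crossing the threshold against own T0 per spike-in were *eno102* in *pht1∆* at T1W (-1.11, adjusted p = 0.0449) and SPBPB21E7.02c in *iec1∆* at T2W (lost, 0.0642) with the strains alone, *eno102* in *iec1∆* at T2W (1.43, 0.0458) with the likelihood ratio test, and, with ERCC totals without TMM, SPBPB21E7.02c in *iec1∆* at T2W (lost, 0.0592) and *eno102* in *arp42∆* at T2W (0.0488). The cause of these changes was not tested.

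At T0 a read was worth up to 168 ERCC CPM. SPBPB21E7.02c and SPBPB21E7.10 had 21 and 14 T0 reads in all mutants and wild type together, so their spike-in changes rest on few reads. More than 3 reads at T0 were found only in *pht1∆* for both genes (10 and 8) and in *arp42∆* for SPBPB21E7.02c (9).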
